A study of Mus musculus with 10 samples.

Results

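The genes described here are 36 genes of glycolysis and of the transcriptional response to low oxygen, chosen by symbol from a table of 54532 genes. They occupied 37 entries of the table, because Aldoa, which encodes the muscle-type aldolase, was listed under 2 gene IDs. The libraries came from primary lung fibroblasts of mice, grown at baseline in medium with serum, and 5 wild-type libraries were compared with 5 libraries labelled Mrc2 knockout. Mrc2 encodes a receptor that takes up collagen for breakdown in lysosomes, and the series is titled for the proliferation of these cells without it. Both genotypes carried the same tissue, cell type and batch labels, and the labels give neither the strain nor the age of the mice, nor how the Mrc2 allele was made. Nothing beyond the numbering as biological replicates says that the cultures came from separate mice, so the p-values measure the spread between these samples, which may in part be technical.

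Glycolysis splits glucose into pyruvate in the cytosol, and much of the pyruvate in cultured fibroblasts leaves the cell as lactate. When oxygen is scarce, prolyl hydroxylases no longer mark the hypoxia-inducible factor proteins for destruction. The factors then bind DNA at short elements with the core ACGTG or GCGTG and raise transcription of glycolytic enzymes, glucose transporters, mitophagy receptors and secreted vascular factors. Growth factor and nutrient signalling raise many of the same genes at normal oxygen.

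The stretches before the start site of 7 of these genes are shown because they let the core element be seen beside the values that follow. Ddit4, Vegfa, Adm, Pdk1 and Ldhb had the lowest p-values of the set, while Bnip3 and Ldha are widely used targets of the hypoxia-inducible factors. Each is the 250 bases before a start site of the gene in RefSeq (GRCm38.p6, the build also called mm10), read 5′ to 3′ on the strand of the gene, and capitals mark every match to ACGTG or GCGTG on either strand (on the other strand these read CACGT and CACGC).
Ddit4 (chr10:59951771-59952020, minus strand): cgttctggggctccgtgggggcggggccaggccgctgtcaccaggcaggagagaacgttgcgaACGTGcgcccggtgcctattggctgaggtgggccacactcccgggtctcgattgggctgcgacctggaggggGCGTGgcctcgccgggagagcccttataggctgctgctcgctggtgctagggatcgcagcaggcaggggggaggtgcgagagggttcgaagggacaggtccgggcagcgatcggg
Vegfa (chr17:46032378-46032627, minus strand): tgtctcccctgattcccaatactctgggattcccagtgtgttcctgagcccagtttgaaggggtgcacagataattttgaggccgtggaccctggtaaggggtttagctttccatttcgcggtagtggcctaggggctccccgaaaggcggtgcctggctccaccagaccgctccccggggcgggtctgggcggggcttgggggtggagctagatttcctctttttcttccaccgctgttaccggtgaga
Adm (chr7:110627407-110627656, plus strand): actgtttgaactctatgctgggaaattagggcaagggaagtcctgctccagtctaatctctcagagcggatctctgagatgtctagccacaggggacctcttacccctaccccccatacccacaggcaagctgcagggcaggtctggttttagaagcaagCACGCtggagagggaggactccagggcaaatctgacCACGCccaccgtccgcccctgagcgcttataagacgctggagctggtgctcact
Pdk1 (chr2:71872974-71873223, plus strand): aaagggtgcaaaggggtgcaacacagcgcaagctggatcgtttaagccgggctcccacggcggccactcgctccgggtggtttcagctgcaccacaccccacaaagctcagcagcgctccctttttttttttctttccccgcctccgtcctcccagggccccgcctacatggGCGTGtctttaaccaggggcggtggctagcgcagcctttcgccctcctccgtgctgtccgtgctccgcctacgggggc
Ldhb (chr6:142507958-142508207, minus strand): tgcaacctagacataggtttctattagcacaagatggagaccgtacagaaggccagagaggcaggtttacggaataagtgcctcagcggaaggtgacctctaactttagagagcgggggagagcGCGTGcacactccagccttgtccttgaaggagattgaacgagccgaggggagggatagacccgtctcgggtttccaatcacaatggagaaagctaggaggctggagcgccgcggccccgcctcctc
Bnip3 (chr7:138909507-138909756, minus strand): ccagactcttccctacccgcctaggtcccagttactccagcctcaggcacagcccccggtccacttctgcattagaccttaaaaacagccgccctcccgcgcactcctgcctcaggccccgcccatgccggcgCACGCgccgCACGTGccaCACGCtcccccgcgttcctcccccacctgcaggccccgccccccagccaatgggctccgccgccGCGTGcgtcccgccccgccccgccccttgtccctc
Ldha (chr7:46845554-46845803, plus strand): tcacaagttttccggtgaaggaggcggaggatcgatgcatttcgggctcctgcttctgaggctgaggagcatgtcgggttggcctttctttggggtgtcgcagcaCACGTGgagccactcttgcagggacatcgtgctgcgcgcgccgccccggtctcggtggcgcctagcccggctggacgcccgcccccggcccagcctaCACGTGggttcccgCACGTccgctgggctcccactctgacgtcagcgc

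In windows of 300 bases, which reach 50 bases past the start site, 25 of the 33 genes with an entry held at least 1 core element. The same held for 43.8% of all 32851 promoter windows of the reference. The version ACGTG, in either orientation, was in 18 of the 33 windows and in 19.6% of all windows. Median GC content was 62.3% for the windows of these genes and 52.7% for all windows, and its part in the difference was not tested. CACGTG, as in the Ldha and Bnip3 stretches, counts as a match on each strand. Bnip3l, Epas1 and Ndrg1 had no entry. A match describes letters in the window and says nothing about binding, and the Vegfa window shown held none, while the other Vegfa window of the reference held at least 1. Each window is the one nearest the gene's start in the deposited table, and for Ldha that start lay 4329 bases away. A second Pdk1 match crosses the start site, so it is not in capitals.

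Total counts ranged from 19603933 to 29944615 per library, and 3 counts corresponded to 0.100 to 0.153 CPM (library-size normalised counts, scaled by trimmed-mean factors). Mrc2, the targeted gene, averaged 843 ± 176 CPM across wild-type and 242 ± 30.4 CPM across knockout libraries (SD, n = 5 per genotype), with no overlap between the groups. Its counts in knockout libraries were not 0, and the labels do not say which part of the gene was deleted. Of the markers of fibroblasts, 8 of 8 were measured, and together they summed to 14554 to 25349 CPM in wild type and 20398 to 32925 CPM in knockout. Col1a1 and Col1a2 held most of these sums, with wild-type means of 8540 and 7080 CPM and knockout means of 14765 and 10022 CPM. The 10 leukocyte and macrophage markers summed to 2432 to 12213 CPM in wild type and 2975 to 6784 CPM in knockout, with overlap between the genotypes. Lyz2 alone held most of these sums, with a wild-type mean of 5297 CPM and a knockout mean of 3454 CPM. The 8 epithelial markers summed to at most 1.71 CPM in any library, and the 6 endothelial markers to at most 11.1 CPM. The 5 mesothelial markers summed to 82.6 to 429 CPM in wild type and 61.0 to 208 CPM in knockout, and the 6 smooth muscle and pericyte markers to 3174 to 10527 and 5900 to 10616 CPM. In 0 of the lists did a gene pass the test over all genes. At an unadjusted p under 0.05 by edgeR, Col1a1 (log2 fold change 0.79), Col1a2 (0.50), Notch3 (1.03) and Myh11 (0.82) were higher in knockout and Msln, a mesothelial marker, was lower (-1.54). Of all genes tested, 13.3% were under that p. Among the other fibroblast markers, Vim (-0.24), Dcn (-0.45) and Lum (-0.77) were below 0, and Pdgfra (0.41), Pdgfrb (0.31) and Thy1 (0.07) were above. The part of these marker genes in the results below was not tested. In whole-culture RNA, fewer cells of a type and less RNA per cell cannot be told apart.

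Glycolytic enzymes were among the abundant transcripts of both groups, and 30 of the 37 entries had intervals that lay within a 2-fold change. In edgeR's quasi-likelihood test, 0 of the 37 entries had a Benjamini-Hochberg adjusted p under 0.05, where 0.0139% of the 14360 genes tested passed, and the lowest adjusted p of the set was 0.231. At an unadjusted p under 0.05 there were 5 entries of 37, or 13.5%, against 13.3% of all genes tested. Ddit4, Vegfa and Pdk1 were higher in knockout at that level (7.19% of all genes were) and Adm and Ldhb were lower (6.1% of all genes were). These shares lie close to the background. DESeq2 called 1 entry, Ddit4, where it called 1.69% of all genes, and had 6 entries with an unadjusted p under 0.05, where 15.6% of all genes were under it. Limma-voom called 0 entries, where it called 0.00696% of all genes, and had 5 entries with an unadjusted p under 0.05, where 12.6% of all genes were. Without a filter on low counts 0 entries were called, as were 0.0105% of all genes. All 37 entries passed the filter. Of them 24 had a log2 fold change above 0 and 13 below, with a median of 0.14 over the set and -0.01 over all genes tested. That is 64.9% of the entries above 0, against 48.4% of all genes tested, and the difference was not tested.

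**Figure D1:**
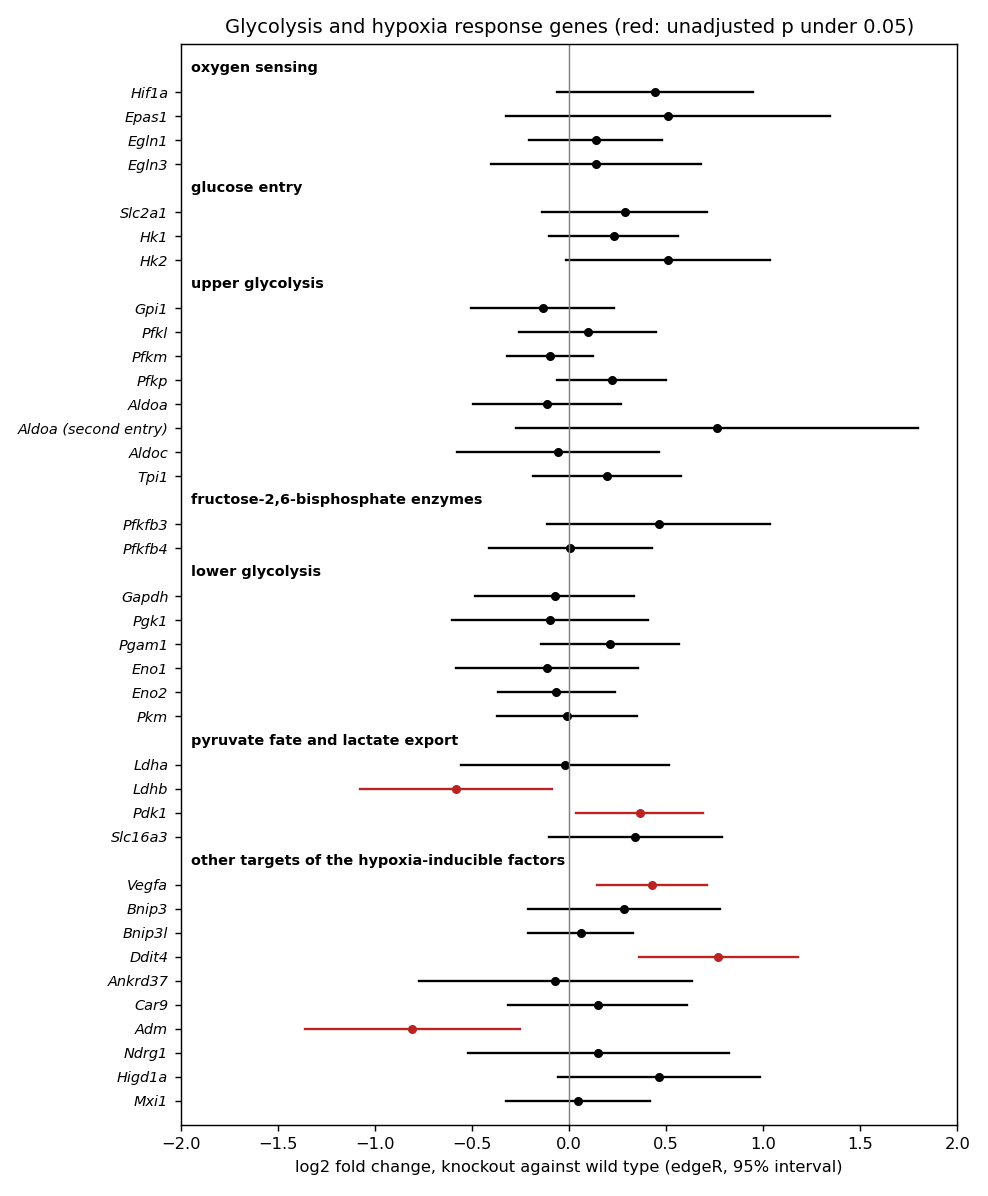
Log2 fold change of each of the 37 entries, knockout against wild type, with its 95% interval from edgeR, ordered by role. Ddit4, Vegfa and Pdk1 (red, right of 0) and Adm and Ldhb (red, left of 0) had an unadjusted p under 0.05, and all other intervals cross 0.

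The intervals give the size of change that the data leave possible. For 30 of the 37 entries the whole 95% interval lay within a 2-fold change in either direction, and for 18 it lay within 1.5-fold. Intervals that reached past 2-fold belonged to Epas1, Hk2, Pfkfb3, Ddit4, Adm, Ldhb and the second entry of Aldoa. That entry was counted only 3 to 26 times per library and carries little of the Aldoa signal.

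Ddit4 (chr10:59949669-59951834), which encodes an inhibitor of the growth-promoting kinase complex mTORC1 and is induced by low oxygen and other stress, had the lowest p of the set. It was at 53, 48.9, 69.2, 41.2 and 43.1 CPM in wild-type replicates 1 to 5 and 72.8, 106, 113, 76.8 and 65.8 CPM in knockout replicates 1 to 5. Every knockout library lay above the wild-type mean, and the groups overlapped because wild-type replicate 3 exceeded knockout replicate 5. The difference was 1.70-fold (log2 fold change 0.77, 95% interval 0.36 to 1.18), with an edgeR adjusted p = 0.231. DESeq2 gave an adjusted p = 0.0229, and without knockout replicate 5 edgeR gave 0.0498.

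Vegfa (chr17:46016993-46032369), the growth factor that guides blood vessels, was at 368, 362, 358, 392 and 327 CPM in wild-type replicates 1 to 5 and 450.3, 639, 475, 446 and 418 CPM in knockout replicates 1 to 5. It was the 1 entry of 37 whose groups did not overlap, where 2.05% of all genes tested did not overlap and 0.961% did not overlap with knockout higher. Knockout replicate 2 was far above the other knockout libraries. The difference was 1.34-fold (log2 fold change 0.43, 95% interval 0.14 to 0.71, edgeR adjusted p = 0.282; DESeq2 adjusted p = 0.0664).

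Adm (chr7:110627661-110629820), which encodes the vasodilator peptide adrenomedullin, was below 0 where 8 of the 10 other targets of the hypoxia-inducible factors, a group that includes Adm, lay above. It was at 675, 484, 489, 332 and 281 CPM in wild-type replicates 1 to 5 and 149, 282, 268, 267 and 324 CPM in knockout replicates 1 to 5. All 5 knockout libraries lay below the wild-type mean, and wild-type replicates 4 and 5 lay within or next to the knockout range. The knockout level was 0.570 of the wild-type level (log2 fold change -0.81, 95% interval -1.36 to -0.26, edgeR adjusted p = 0.29; DESeq2 adjusted p = 0.0881).

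Among enzymes that decide the fate of pyruvate, Ldhb (chr6:142490249-142507957), the heart-type subunit of lactate dehydrogenase, was at 40.9, 28.1, 46.9, 63.3 and 28.7 CPM in wild-type replicates 1 to 5 and 37, 22, 25.7, 26.7 and 27.1 CPM in knockout replicates 1 to 5. The 4 libraries of knockout replicates 2 to 5 were below all wild-type libraries, and knockout replicate 1 was inside the wild-type range. The level in knockout was 0.667 of that in wild type (log2 fold change -0.58, 95% interval -1.08 to -0.09, edgeR adjusted p = 0.343). Pdk1 (chr2:71873224-71903858) encodes a kinase that holds back pyruvate dehydrogenase, the enzyme complex that uses pyruvate inside mitochondria. Pdk1 was at 75.9, 86.8, 88.9, 63.8 and 69 CPM in wild-type replicates 1 to 5 and 70.3, 111, 118, 102 and 93.1 CPM in knockout replicates 1 to 5. Knockout replicates 2 to 5 were above all wild-type libraries, and replicate 1 was within their range (log2 fold change 0.36, 95% interval 0.04 to 0.69, edgeR adjusted p = 0.353). Slc16a3, which exports lactate, was at 297 ± 62.2 CPM across wild-type and 377 ± 97.7 CPM across knockout libraries (SD, n = 5 per genotype), with knockout above the wild-type mean in 4 of 5 libraries (log2 fold change 0.34, 95% interval -0.11 to 0.79).

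Ldha (chr7:46841475-46855627), the muscle-type subunit that makes lactate, was at 2043, 1476, 2923, 1726 and 1917 CPM in wild-type replicates 1 to 5 and 1240.4, 1939, 1974, 1727 and 3049 CPM in knockout replicates 1 to 5. The lowest and the highest of the 10 libraries were both knockout libraries, and the groups overlapped almost wholly (log2 fold change -0.02, 95% interval -0.56 to 0.51, edgeR adjusted p = 0.972). Per length, Ldha stood at 1860 ± 346 TPM in wild type and Ldhb at 81.6 ± 28.2 TPM, so the muscle-type subunit made up nearly all lactate dehydrogenase transcript (TPM, each gene's length-scaled share of its library, computed from the deposited counts and gene lengths).

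**Figure D2:**
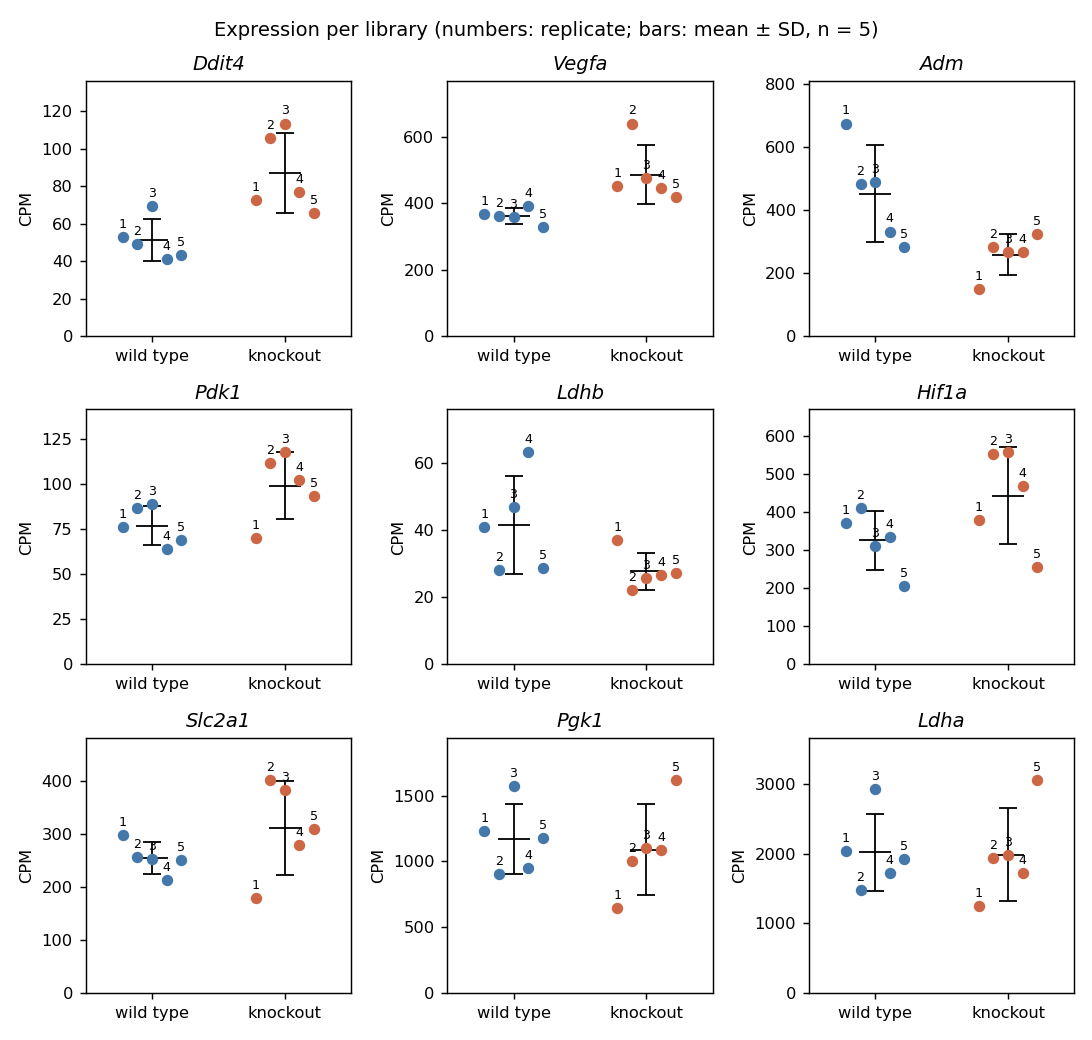
CPM of 9 genes in each library (points, numbered by replicate; black bars, mean ± SD, n = 5 per group; each axis starts at 0). The groups separate only for Vegfa, and knockout replicate 1 is the lowest knockout library for Adm, Pdk1, Slc2a1, Pgk1 and Ldha.

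The 4 genes grouped as oxygen sensing were Hif1a, Epas1, Egln1 and Egln3. Their log2 fold changes were above 0 in 4 of 4, against 48.4% of all genes tested, and the difference was not tested. Epas1 was below 0 without knockout replicate 1, and 0 of the 4 had an unadjusted p under 0.05. Related genes were counted with the other hypoxia genes below. Of these, the prolyl hydroxylase gene Egln2 was at -0.21, and Arnt (0.34), Arnt2 (0.41), Hif1an (0.09) and Vhl (0.01) were above 0. Hif1a (chr12:73901375-73947530), the regulated subunit of hypoxia-inducible factor 1, was at 372, 411, 311, 335 and 206 CPM in wild-type replicates 1 to 5 and 381, 555, 559, 470.2 and 256 CPM in knockout replicates 1 to 5. Knockout replicates 2 to 4 exceeded every wild-type library, while knockout replicate 5 was lower than all but 1 of them (log2 fold change 0.44, 95% interval -0.06 to 0.95, edgeR adjusted p = 0.416). The factor is set mainly by protein stability, which these counts do not measure. Its relative Epas1, which encodes the alpha subunit of hypoxia-inducible factor 2, was at 16.5, 22.8, 13.2, 13.6 and 25.3 CPM in wild-type replicates 1 to 5 and 59.4, 16, 20.4, 21 and 13.3 CPM in knockout replicates 1 to 5. Knockout replicate 1 stood more than 2 times above any other library, and the fold change of 0.51 with it became -0.05 without it. The prolyl hydroxylases Egln1 and Egln3, of which Egln3 is itself a target of the factors, were at 134 ± 17.9 CPM across wild-type and 147 ± 32.1 CPM across knockout libraries (SD, n = 5 per genotype), and at 50.5 ± 8.83 CPM across wild-type and 55.6 ± 18.4 CPM across knockout libraries (SD, n = 5 per genotype). For Egln3, knockout replicate 1 was at 23.7 CPM and the other knockout libraries at 56.8 to 69.6 CPM.

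Of the 3 genes for the entry of glucose into the pathway, 0 had an unadjusted p under 0.05 by edgeR, and their mean centred log2 CPM overlapped between the genotypes, at -0.35 to 0.06 in wild type and -0.34 to 0.57 in knockout. Slc2a1 (chr4:119108711-119137983), the main glucose transporter of fibroblasts, was at 299, 257, 253, 213 and 251 CPM in wild-type replicates 1 to 5 and 179.6, 401, 382, 279.6 and 310.3 CPM in knockout replicates 1 to 5. Knockout replicates 2, 3 and 5 exceeded every wild-type library and knockout replicate 1 was below all of them (log2 fold change 0.29, 95% interval -0.14 to 0.71, edgeR adjusted p = 0.506). The hexokinase genes Hk2 and Hk1, whose products trap glucose in the cell, had log2 fold changes of 0.51 (95% interval -0.02 to 1.03) and 0.23 (-0.10 to 0.56). Hk2 reached 193 CPM in both knockout replicates 2 and 3, against a wild-type range of 69.9 to 112 CPM, and its unadjusted p was 0.0559 by edgeR and 0.0463 by DESeq2. Pfkfb3, which makes the activator of phosphofructokinase, was at 59.9 ± 15.8 CPM across wild-type and 82.5 ± 30.5 CPM across knockout libraries (SD, n = 5 per genotype), with a log2 fold change of 0.46 and a 95% interval of -0.11 to 1.03. Its relative Pfkfb4 was at 14.8 ± 3.01 CPM across wild-type and 14.9 ± 3.77 CPM across knockout libraries (SD, n = 5 per genotype).

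The enzymes from glucose 6-phosphate to pyruvate had median log2 fold changes of 0.02 in the upper part and -0.07 in the lower part. The upper median is over 8 entries and includes the second Aldoa entry, at 0.76 with few counts. In the upper part, leaving out the second Aldoa entry, single values were -0.14 for Gpi1, 0.10 for Pfkl, -0.10 for Pfkm, 0.22 for Pfkp, -0.12 for Aldoa, -0.06 for Aldoc and 0.19 for Tpi1. The middle of these 7 values is that of Aldoc, -0.06, so the upper median is above 0 only with that entry. In the lower part, they were -0.07 for Gapdh, -0.10 for Pgk1, 0.21 for Pgam1, -0.12 for Eno1, -0.07 for Eno2 and -0.01 for Pkm. The signs of Gapdh, Pkm, Eno1, Eno2, Pgk1 and Aldoc changed when some single libraries were left out, and those of Pgk1 and Pfkp when the gene length trend was removed. None of these genes had an unadjusted p under 0.05, and the genotypes overlapped for each. Pgk1 (chrX:106187100-106203699), which makes the first ATP of the pathway, was at 1231, 906, 1570.3, 951 and 1178 CPM in wild-type replicates 1 to 5 and 643, 1004, 1100.3, 1086 and 1615 CPM in knockout replicates 1 to 5. Its knockout values spanned those of wild type on both sides (log2 fold change -0.10, 95% interval -0.60 to 0.41, edgeR adjusted p = 0.855). Gapdh, often taken as a reference gene, was at 3539 ± 523 CPM across wild-type and 3362 ± 751 CPM across knockout libraries (SD, n = 5 per genotype), and its interval of -0.48 to 0.34 on the log2 scale allows at most a 1.26-fold rise or a fall to 0.715 of the wild-type level.

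By length-scaled level, Gapdh was the highest of the set in wild type at 2640 ± 267 TPM, followed by Aldoa at 2078 ± 125, Ldha at 1860 ± 346, Pkm at 1799 ± 119, Pgk1 at 1592 ± 234 and Eno1 at 1579 ± 230 TPM (SD, n = 5). Neighbours from Aldoa downward differed by less than their spread. The knockout means were 2606 TPM for Gapdh, 1989 TPM for Aldoa and 1898 TPM for Ldha. These levels depend on the gene length in the deposited table. Together the 37 entries took 1.96% ± 0.23 of all counts in wild type and 1.90% ± 0.35 in knockout (SD, n = 5 each). At the other end, the second Aldoa entry had a wild-type mean of 1.28 TPM, and Epas1, Ankrd37, Pfkfb4, Aldoc and Car9 had wild-type means of 10.8, 9.73, 9.46, 7.58 and 6.15 TPM. Car9, the membrane carbonic anhydrase that is a common tissue marker of hypoxia, was at 4.57 ± 0.358 CPM across wild-type and 5.06 ± 1.46 CPM across knockout libraries (SD, n = 5 per genotype), so it was detected in every library at a low level.

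The balance between related genes was compared as 11 ratios of length-scaled counts within each library, which do not depend on size factors. Their levels do depend on the gene lengths in the deposited table. None passed the test: the lowest p of the exact two-sided permutation tests over libraries was 0.23, with an adjusted p of 0.768, where the smallest p possible is 0.00794. Hk2 and Hk1 were at similar levels per length, with Hk2 to Hk1 ratios of 0.688 to 1.04 in wild type and 0.701 to 1.23 in knockout. Ldhb stood at 0.0315 to 0.0773 of Ldha in wild type and 0.0188 to 0.0629 in knockout, the highest knockout value being replicate 1. Per length, Bnip3 exceeded its relative Bnip3l in every library, by 1.34- to 2.33-fold in wild type and 1.38- to 2.21-fold in knockout. Without length scaling, wild-type means were 127 CPM for Bnip3 and 129 CPM for Bnip3l, and 98.3 CPM for Hk2 and 160 CPM for Hk1. The exporter Slc16a3 exceeded Slc16a1, the other common lactate transporter, by 7.52- to 15.3-fold in wild type and 9.12- to 16.1-fold in knockout. Aldoc and Eno2, the brain-type forms, were minor: Aldoc was at most 0.00545 of Aldoa and Eno2 at most 0.0249 of Eno1 in any library.

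Of the remaining targets of the hypoxia-inducible factors, Bnip3 and Bnip3l, which mark mitochondria for removal, had log2 fold changes of 0.28 (95% interval -0.21 to 0.78) and 0.06 (-0.21 to 0.33). Higd1a, a small mitochondrial protein of hypoxic survival, was at 79.4 ± 22.3 CPM across wild-type and 109 ± 33.3 CPM across knockout libraries (SD, n = 5 per genotype), with a log2 fold change of 0.46 and a 95% interval of -0.06 to 0.98. Ndrg1, a stress-induced gene, was at 46.9, 38.1, 43.4, 36 and 50.1 CPM in wild-type replicates 1 to 5 and 14.8, 64.2, 65.4, 45 and 48.7 CPM in knockout replicates 1 to 5. Knockout replicate 1 was lower than all other libraries for Ndrg1, and the remaining 4 knockout libraries averaged above wild type. Mxi1, which antagonises Myc, and Ankrd37, an ankyrin repeat gene, had values of 0.04 and -0.07, both with intervals across 0 and with signs that changed under some alternatives.

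**Figure D3:**
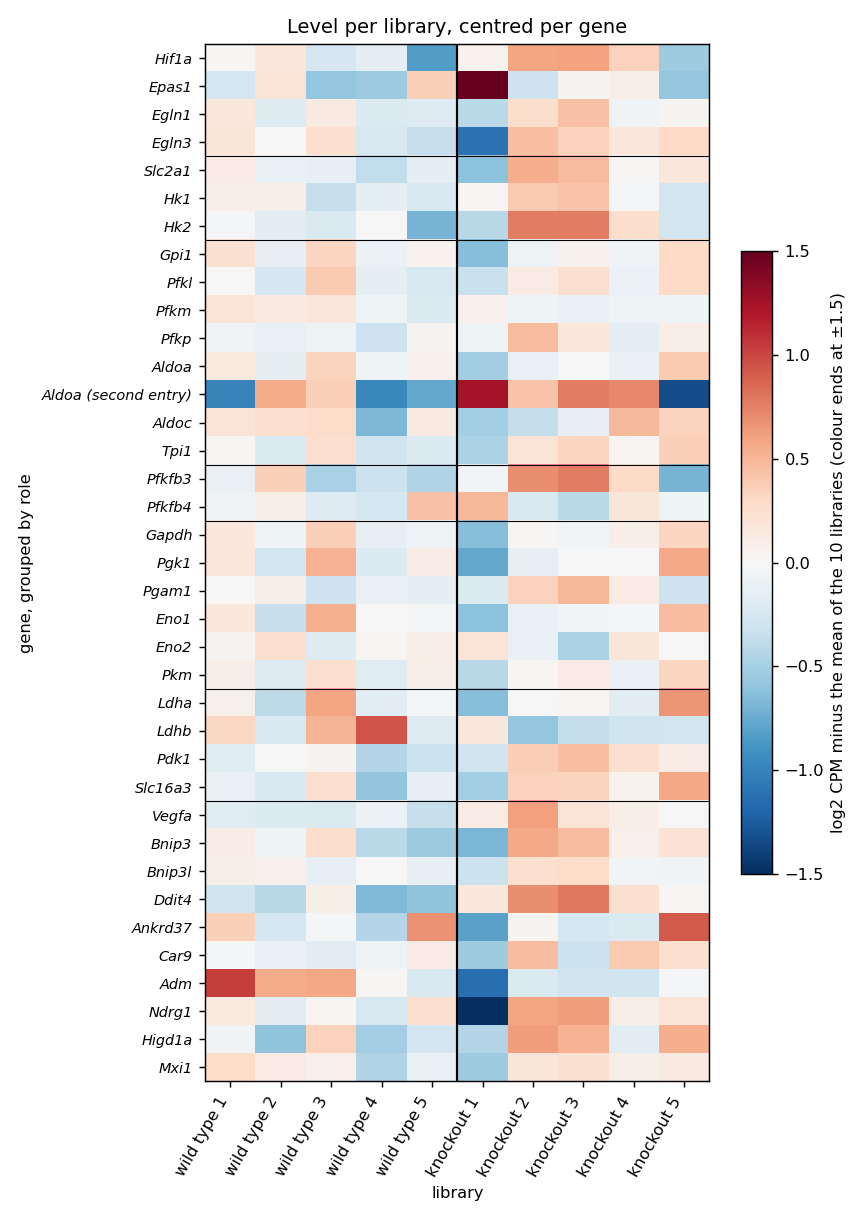
Log2 CPM of each of the 37 entries in each of the 10 libraries, with the mean over the libraries subtracted per gene (red above, blue below), wild type left and knockout right of the line. Knockout replicate 1 is blue across most entries, but the highest of all libraries for Epas1, Pfkfb4 and the second Aldoa entry, and knockout replicates 2 and 3 are red for glucose entry genes and for Ddit4.

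Knockout libraries differed among themselves. Knockout replicate 1 was the lowest of the 10 libraries for 19 of the 37 entries, or 51.4%, and it was the lowest for 14.4% of all genes tested. It was lowest for 7 of the 10 other targets of the hypoxia-inducible factors and for 4 of the 6 lower glycolysis genes. Knockout replicates 2 and 3 were the highest of the 10 for 8 and 9 entries, or 21.6% and 24.3%, against 6.25% and 10.7% of all genes. The mean centred log2 CPM of the other targets was -0.57 in knockout replicate 1, 0.03 to 0.38 in the other knockout libraries and -0.29 to 0.15 in wild type. The depth of knockout replicate 1 was within the range of the others, at 28854008 counts. The mean centred log2 CPM of its smooth muscle and pericyte markers was 0.84, against -0.14 to 0.24 in the other knockout libraries, with Myh11 at 706 CPM against 250.4 to 416 CPM and Notch3 at 72.5 CPM against 16.4 to 34.6 CPM. The summed CPM of the same markers was not highest in it, at 7614 against 10616 in knockout replicate 5 and 10527 in wild-type replicate 3. The mean centred log2 CPM, or score, of its fibroblast markers was 0.36, against -0.30 to 0.18 in the other knockout libraries and -0.43 to 0.46 in wild type. Its endothelial score was 0.57, against -0.23 to 0.44 in the other knockout libraries and -0.64 to 0.43 in wild type. Its mesothelial score was -1.02, against -1.12 to 0.62 in the other knockout libraries and -0.64 to 1.37 in wild type. Its leukocyte score was -0.26, against -0.42 to 0.50 and -0.90 to 1.23. The part of these markers in its position was not tested.

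**Figure D4:**
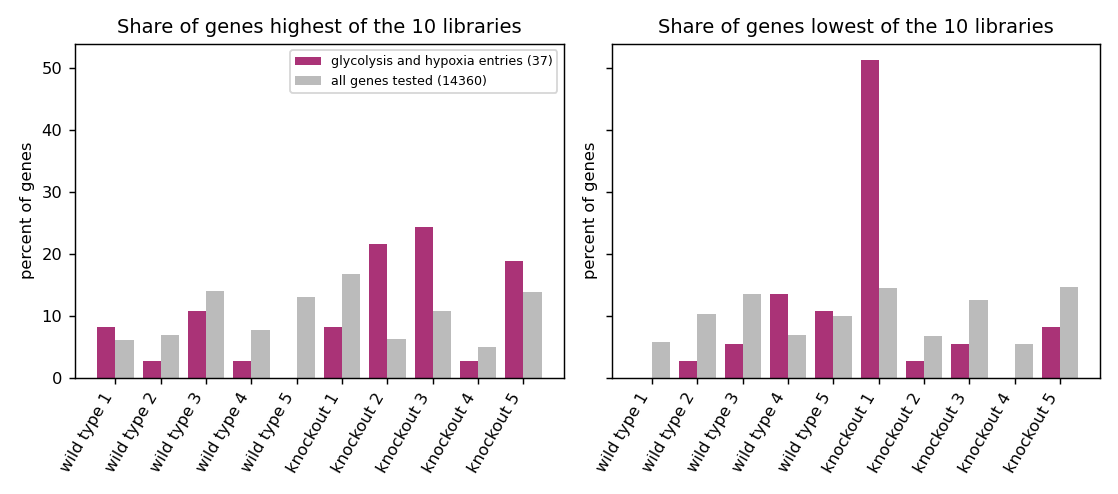
Percent of genes for which each library was the highest (left) or the lowest (right) of the 10, for the 37 entries and for all genes tested. Knockout replicate 1 was the lowest for 51.4% of the entries and 14.4% of all genes.

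Without knockout replicate 1, 28 of the 37 entries lay above 0, with a median log2 fold change of 0.23, against -0.02 over all genes tested. In that comparison 10 entries were higher at an unadjusted p under 0.05, where 4.4% of all genes tested were, and 2 were lower, where 4.13% of all genes were. The 10 were Ddit4, Pdk1, Vegfa, Slc2a1, Hk2, Slc16a3, Higd1a, Ndrg1, Bnip3 and Egln3, with log2 fold changes from 0.33 for Egln3 to 0.81 for Ddit4, and the 2 were Adm and Ldhb. None passed over all genes, where 0.00689% of genes did, and the lowest adjusted p by edgeR was 0.397. This library was chosen because it was the lowest for so many of these genes, so its removal gives no separate support. Without knockout replicate 5, 8 entries were higher and 2 lower at an unadjusted p under 0.05, where 14.7% of all genes were in each direction. Ddit4 then passed over all genes, as did 1.39% of all genes. Without both libraries 13 entries were higher at an unadjusted p under 0.05, where 11% of all genes were, and 2 were lower, where 9.96% were, and 0 passed, where 0.0136% of all genes did.

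Of 36 tested genes among 44 others of glycolysis and pyruvate use, 21 were above 0 and 15 below, with a median of 0.04. These are 58.3% above 0, against 48.4% of all genes tested. None passed with edgeR or DESeq2 over all genes, and 3 had an unadjusted p under 0.05 by edgeR, all lower in knockout. These are 8.33% of the 36, against 13.3% of all genes in either direction and 6.1% lower. They were Pdk4 and Pdk2, kinases of the same family as Pdk1, and Slc2a8, an intracellular glucose transporter. Pdk4 averaged 28.6 ± 6.24 CPM across wild-type and 18.2 ± 3.75 CPM across knockout libraries (SD, n = 5), a log2 fold change of -0.65 (edgeR adjusted p = 0.258). Slc2a8 ranged from 23.6 to 26.2 CPM in wild-type and from 15.6 to 21.5 CPM in knockout libraries, with no overlap (log2 fold change -0.32, edgeR adjusted p = 0.333; 1.09% of all genes tested were lower without overlap). Pdk1 and Pdk4 thus had values of opposite sign, 0.36 and -0.65, and the difference between them was not tested.

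Of 34 tested genes among 35 others of the hypoxia response, 24 were above 0 and 10 below, with a median of 0.15. These are 70.6% above 0, against 48.4% of all genes tested, a difference that was not tested. None passed with edgeR or DESeq2, and 3, or 8.82%, had an unadjusted p under 0.05 by edgeR, against 13.3% of all genes. Flt1, a receptor for Vegfa, averaged 66.8 ± 8.46 CPM across wild-type and 95.4 ± 25.4 CPM across knockout libraries (SD, n = 5), a log2 fold change of 0.51 (edgeR adjusted p = 0.316). Plod2, a lysyl hydroxylase of collagen, had a value of 0.64 (edgeR adjusted p = 0.355), and Bhlhe41, a repressor of the clock, -0.48 (edgeR adjusted p = 0.364). Of the 8 pentose phosphate genes, which use glucose 6-phosphate to make NADPH and ribose, 7 were below 0 and 1 above, with a median of -0.19. That is 12.5% above 0, against 48.4% of all genes tested, and this was not tested either. None of the 8 had an unadjusted p under 0.05 by edgeR, 1 did by DESeq2, and 0 passed with either. The lowest adjusted p by edgeR was 0.382.

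Some of these genes may share reads with neighbours, because no source used here says whether strand was used in counting. Exons of another gene overlap 16 of the 37 entries. The overlapping genes held 1014% of the counts of Ankrd37, which shares its locus with Ufsp2 and Lrp2bp, 50.6% of those of Pfkm, 48.1% of those of Pfkp and 40.5% of those of Car9. For the other entries the share was at most 2.37%. Stretches of at least 200 bases with at least 95% identity to other annotated genes, mostly pseudogenes, were found for 14 entries. Gapdh had 78 such copies, which together held 0.446% of its counts, and reads lost to such copies cannot be counted here.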

How the data were processed

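Poly(A)-selected RNA of 10 cultures was sequenced on an Illumina instrument, according to the labels' protocols. The authors deposited raw read counts per Ensembl gene; the genome build mm10 and the tools HTSeq 0.6.1, STAR 2.5 and DESeq2 2 are listed, without roles, per the submitters' processing notes. Neither the annotation release nor the use of strand was stated in the labels. The deposited gene length, a column of the same table in another unit (bases), served for TPM and ratios.

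Groups came from the titles. With filterByExpr, 14360 of 28582 genes with a count above 0 were tested with edgeR 4.0.16 in R 4.3.3 (quasi-likelihood F test) with TMM factors, no covariate and Benjamini-Hochberg adjustment over all genes; calls had an adjusted p under 0.05. Intervals used standard errors derived from F and the fold change. Alternatives were DESeq2 1.42.0, limma-voom (limma 3.58.1), other size factors and filters, a replicate block, each library left out, a gene length trend offset, and knockout replicates 1 and 5 left out together; the last 2 were added after seeing the data. Code was checked on simulated counts. Intervals and the floor of 3 counts cover counting error and replicate spread of these libraries only. No 2 libraries agreed within sampling noise (lowest chi-square per degree of freedom 19.5).

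Members and lists were chosen with earlier results of these data known. Values in all libraries are given for entries with an unadjusted p under 0.05 or no overlap, and for Hif1a, Vegfa, Slc2a1, Ldha and Pgk1. Those of Epas1 and Ndrg1, the marker genes named, and Egln2, Arnt, Arnt2, Hif1an and Vhl were added after their values were seen. Besides these, up to 4 genes per list outside the set with an unadjusted p under 0.05 are named. Near-identical copies were sought with megablast in GENCODE M21 transcripts.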

Additional observations from a re-analysis of the deposited data

Results flagged for a closer look

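Of 74 groups of 5 libraries (37 entries in each genotype), 6 had 1 library with a large gap to the nearest other. Large means a gap above 0.71 of the range of the group. For independent groups with normal spread, chance gives about 1 in 20, or 3.7. These groups share the same libraries and are not independent, so the 6 cannot be read against 3.7 as a test. In knockout replicate 1, Epas1 was at 59.4 CPM against 13.3 to 21.0 CPM in the other knockout libraries. The same library was low for Egln3, at 23.7 CPM against 56.8 to 69.6 CPM, and for Mxi1, at 21.7 CPM against 33.4 to 36.5 CPM. Its Pfkm level was high by a small margin, at 50.3 CPM against 45.2 to 46.3 CPM. Vegfa was at 639 CPM in knockout replicate 2 against 418 to 475 CPM in the others. Aldoc was at 4.74 CPM in wild-type replicate 4 against 8.31 to 9.16 CPM in the other wild-type libraries. The causes were not tested.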

How the results depend on the processing

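The count of called genes was 2 in the comparison described, 243 with DESeq2 (146 higher, 97 lower), 1 with limma-voom, 0 with the replicate block and 1 with the gene length trend removed, and 1 to 203 when single libraries were left out (203 without knockout replicate 5). The count of called entries of the set was 0, or 1 with DESeq2 and 0 to 1 with single libraries left out (Ddit4 each time); it was 0 without knockout replicates 1 and 5 together. Other hypoxia genes and pentose phosphate genes had 0 to 1 calls with single libraries left out, Plod2 (adjusted p = 0.0487) and Taldo1 (0.0457), both without knockout replicate 5. The titles number the replicates without saying that same-numbered libraries form pairs. The deviations of same-numbered libraries correlated at -0.24 to 0.38, which neither shows nor excludes pairing. With no composition scaling, 4.83% of all genes were higher and 8.66% lower at an unadjusted p under 0.05, against 7.19% and 6.1%.

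Of the values for single entries under these alternatives, 699 kept direction and side of the threshold, 2 passed it (both Ddit4) and 38 changed sign, all without a call in either fit. With single libraries left out, log2 fold changes ranged from -0.17 to 0.043 for Gapdh, -0.10 to 0.074 for Pkm, -0.27 to 0.016 for Eno1, -0.23 to 0.15 for Ldha, -0.29 to 0.037 for Pgk1, -0.0072 to 0.13 for Bnip3l, -0.12 to 0.028 for Eno2, -0.058 to 0.15 for Mxi1, -0.055 to 0.68 for Epas1, -0.14 to 0.12 for Pfkfb4, -0.20 to 0.047 for Aldoc and -0.40 to 0.10 for Ankrd37, and log2 ratio differences from -0.075 to 0.17 for Aldoc to Aldoa, -0.15 to 0.20 for Eno2 to Eno1, -0.13 to 0.11 for Egln3 to Egln1 and -0.49 to 0.19 for Epas1 to Hif1a. Sign changes under other settings were with the gene length trend removed 0.027 for Ldha, 0.018 for Pgk1, -0.0056 for Pfkp, -0.0027 for Mxi1, -0.023 for Pfkfb4 and 0.035 for Ankrd37; with limma-voom -0.022 for Ndrg1 and -0.0041 for Pfkfb4; with upper-quartile factors -0.0090 for Pfkfb4; with no composition scaling -0.025 for Pfkfb4; with the replicate block -0.0082 for Pfkfb4; with knockout replicates 1 and 5 both left out -0.16 for Pfkfb4. The cause was not tested. Ddit4, Vegfa, Adm, Ldhb and Pdk1 kept their direction in every alternative run. Depth limits the second Aldoa entry, at 3 to 26 counts per library.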
